A study of Mus musculus with 24 samples.

Results

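Untreated DN3b thymocytes were compared with untreated DN3a thymocytes, the step of early T cell development known as beta-selection, measured in cells that had received no cytokine. The comparison rests on 8 of the 24 arrays of the study, chosen by their titles: 4 arrays of untreated DN3a cells and 4 of untreated DN3b cells, paired by sort number. All 8820 genes with a named probe whose detection p-value was under 0.05 on at least 4 arrays were tested.

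Early thymocytes lack both CD4 and CD8, hence the name double negative (DN), and they pass through numbered stages. At the DN3a stage cells rearrange the T cell receptor beta locus while Notch signals from the thymic stroma hold them in the T lineage. A cell that makes a working beta chain pairs it with the invariant pre-T alpha chain and CD3 into the pre-T cell receptor (pre-TCR), and its signal lets the cell survive, grow into a large DN3b blast, divide and move on towards the stage that carries both CD4 and CD8.

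Per the labels, all cells were taken from Il7r+/+ mice of strain C57BL/6J in 4 independent sorts, and were negative for lineage markers and KIT. The DN3a gate took small CD25-positive cells with little CD71, and the DN3b gate large CD25-positive cells with much CD71. Cells were rested for 1 h and then held for 3 h without cytokine, and sister cultures of the same sorts received 10 ng/ml of interleukin 7 (IL7) over those 3 h. The labels give neither the age of the mice nor the number of animals behind a sort. With sort as a block, the p-values measure how differences between subsets varied across these 4 sorts, whose number limits the precision. That spread was estimated over all 12 untreated arrays, which include cells of the later DN4 stage. From each culture 250 ng of RNA was labelled for Illumina Ref8v2 beadchips, whose beads carry gene-specific probes. Levels are given as log2 signals after background correction and quantile normalization, a change is the log2 level in DN3b minus that in DN3a, and p-values are limma values adjusted by Benjamini-Hochberg over the 8820 genes with a threshold of 0.05.

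Arrays of the same group correlated across all 25697 probes at 0.9905 to 0.9942 in DN3a and at 0.9896 to 0.9937 in DN3b, against 0.9616 to 0.9732 between the groups. The first principal component of the 8 arrays carried 76.4% of the variance. Between 11254 and 11628 of the 25697 probes were above background on each of the 8 arrays. Of 10 listed marker genes of DN3 cells 8 were measured, and all 8, among them Ptcra, Rag1, Cd3e and Bcl11b, were above background on every one of the 8 arrays. The genes of the sort gates served only as a check: Tfrc, which encodes CD71, was higher in DN3b by 0.79, while Il2ra, which encodes CD25, was lower by 1.17 although both gates took CD25-positive cells. Kit was not measured. DN3a arrays differed in their content of dividing-cell transcripts, and the values are given beside the cell cycle genes.

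Most measured genes differed between the stages. Past the threshold were 4933 of 8820 genes (55.9%), of which 2195 (24.9%) were higher and 2738 (31%) lower in DN3b cells. Counts of members in the gene lists below are to be read against these shares. At least 2-fold changes were found for 564 genes that rose (6.39% of all genes) and 574 that fell (6.51%), 12.9% together. On the authors' processed values these counts were 348 and 289. Larger steps were more often upward, with 157 genes at least 4-fold higher and 75 at least 4-fold lower, and 47 against 13 at 8-fold. The median change over all genes was -0.03 with a median standard error (SE) of 0.11. In 1737 genes (19.7%) every DN3b array lay above every DN3a array, and in 2241 (25.4%) every one lay below. Because equal masses of RNA were labelled and the arrays were brought to one distribution, all changes are relative to the other transcripts. The RNA content per cell of small DN3a and large DN3b cells was not measured.

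**Figure D1:**
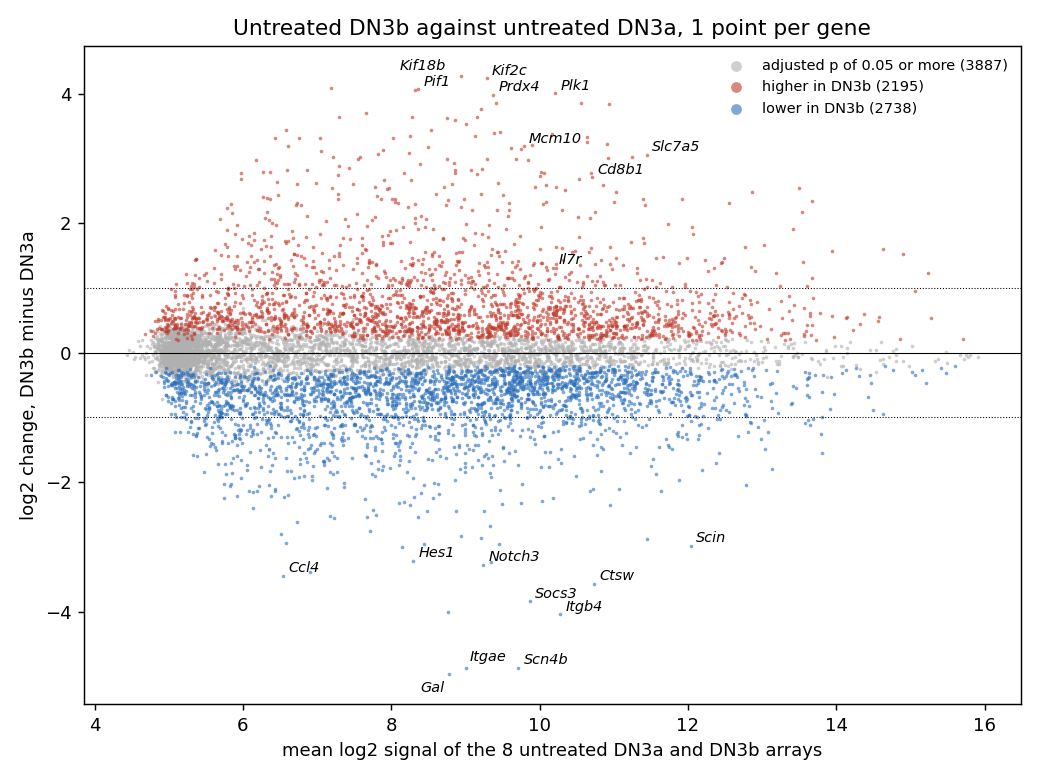
Log2 change (untreated DN3b minus untreated DN3a) against the mean log2 signal of the 8 arrays, 1 point for each of 8820 genes, with dotted lines at 2-fold. The 2195 genes that rose and the 2738 that fell are coloured by the limma call, and the changes run from -4.97 for Gal to 4.28 for Kif18b.

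The genes that rose most were genes of cell division. Kif18b, a kinesin that shortens microtubules in the spindle, had log2 signals of 7.64, 6.74, 6.10 and 6.70 in DN3a and of 11.17, 11.02, 11.10 and 11.02 in DN3b cells of sorts 1 to 4. Its DN3a arrays were spread over more than a unit while its DN3b arrays were nearly equal, and the rise was 4.28 (SE 0.21, 19.4-fold, adjusted p = 1.4e-07). Kif2c, a kinesin that corrects wrong attachments of chromosomes, rose by 4.24 and the DNA helicase gene Pif1 by 4.07. Depdc1b rose by 4.06 and Cdca3, a promoter of mitotic entry, by 3.86. Among the 15 named genes with the largest rise were also Mxd3 (3.65), whose product binds MAX in place of MYC, and a gene outside the cell cycle, Prdx4 (3.99), a peroxiredoxin of the endoplasmic reticulum. Prdx4 stood at 7.94, 7.49, 6.91 and 7.19 in DN3a and at 11.38, 11.36, 11.49 and 11.25 in DN3b cells, a 15.9-fold difference between groups that lay far apart.

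The genes that fell most were of mixed function. Gal, which encodes the neuropeptide galanin, was at 11.59, 10.96, 10.92 and 11.59 in DN3a and at 5.85, 5.98, 6.39 and 6.98 in DN3b cells. No arrays of the groups overlapped, and the fall was 31.3-fold (log2 change -4.97, SE 0.20, adjusted p = 5.1e-08). Scn4b, a beta subunit of voltage-gated sodium channels, fell 29.3-fold. Itgae, the alpha E integrin known as CD103, went from 12.03, 11.22, 11.38 and 11.18 to 6.45, 6.64, 6.48 and 6.76, also 29.3-fold lower. Its 5 other probes gave changes of -4.65, -3.89, -3.72, -1.64 and -0.98, so all ran the same way but with different sizes. Itgb4, the integrin beta 4 chain, fell 16.4-fold, the lysosomal protease gene Ctsw 11.9-fold, and Scin, an actin-severing protein, 7.88-fold. Rps6kl1, a gene of the ribosomal S6 kinase family, fell by 3.39, Cldn4, a tight junction claudin, by 3.23, and Pld4 by 3.00. Of these, Rps6kl1 was above background on only 2 of 4 DN3b arrays. Hsd11b1, the enzyme that regenerates active glucocorticoid, fell by 2.96, and its 3 other probes gave -3.11, -3.02 and -0.69. Ccl4, a chemokine, was above background on 4 of 4 DN3a arrays (8.42, 8.07, 8.11 and 8.44) and on 0 of 4 DN3b arrays. Its chosen probe thus gave at least an 8.19-fold fall (adjusted p = 2.1e-08), while its other probe gave a change of -0.90.

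**Figure D2:**
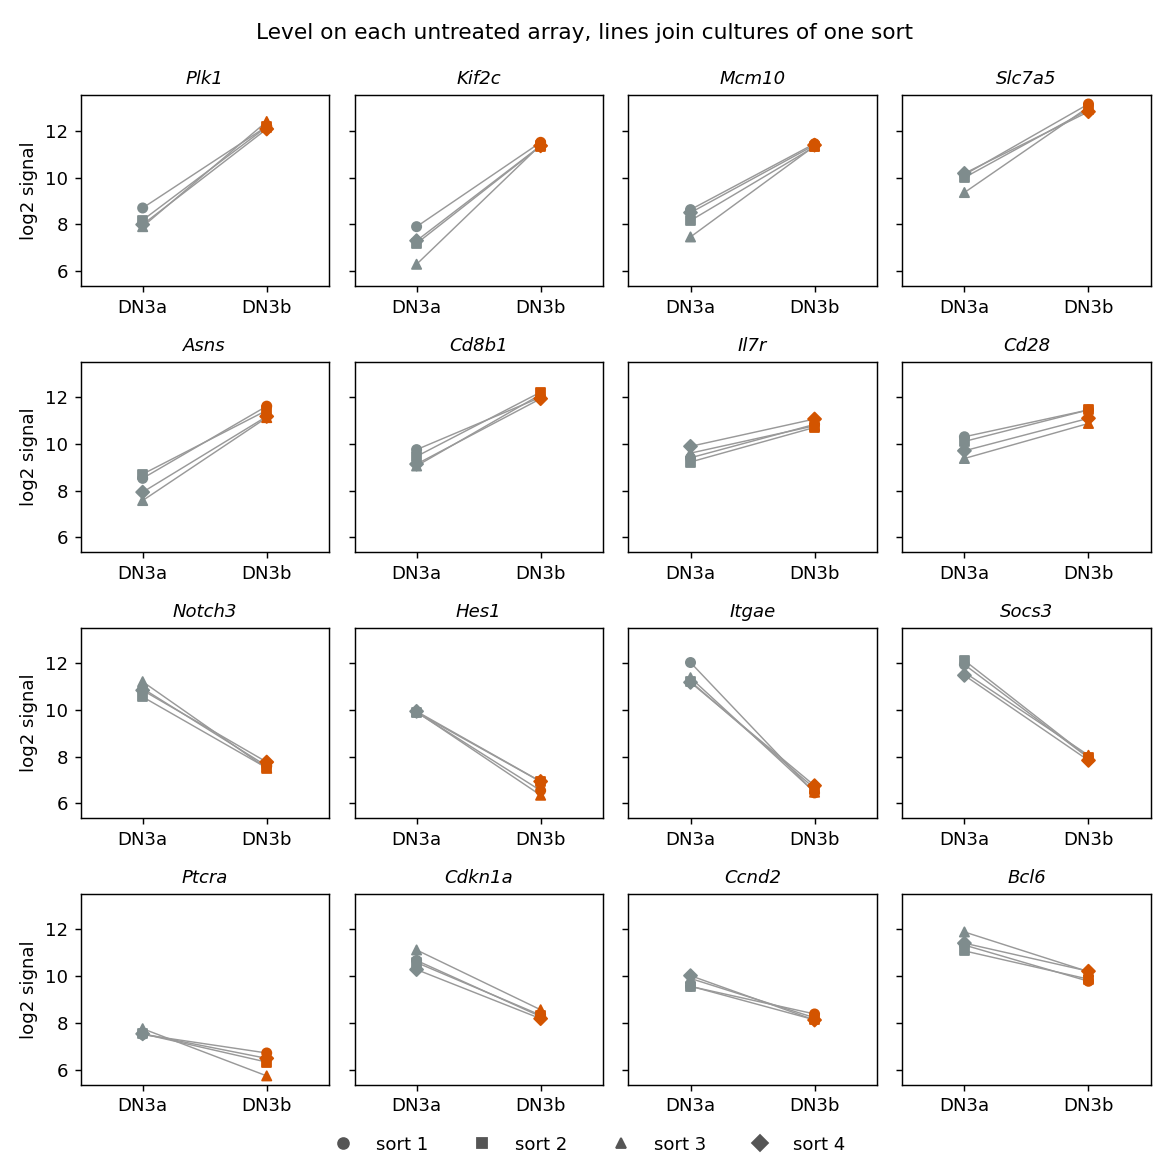
Log2 signal of 16 genes on each untreated array, with grey DN3a and orange DN3b points and lines that join the cultures of 1 sort. In all 16 panels the 4 lines run the same way and the DN3a and DN3b points do not overlap, with the steepest falls for Itgae and Socs3 and the steepest rises for Kif2c and Plk1.

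Genes of the pre-TCR and its signalling chain mostly fell. Of 12 measured members 7 fell and 1 rose, with a median of -0.45, while Cd247, Fyn, Ptprc and Rasgrp1 did not pass. Ptcra, the pre-T alpha chain, had signals of 7.50, 7.53, 7.75 and 7.53 in DN3a and of 6.71, 6.32, 5.73 and 6.48 in DN3b cells. All DN3b arrays lay below all DN3a arrays, and the fall was 1.27 (SE 0.19, 2.40-fold, adjusted p = 2.1e-04). Of the CD3 chains 3 fell by similar amounts: Cd3e by 1.04, Cd3d by 1.00 and Cd3g by 0.94, each with an SE of 0.08 or 0.09. Cd247, the zeta chain, had a change of -0.19 that did not pass, while its 2 other probes gave -1.51 and -1.49. The adaptor genes Lat and Lcp2 and the exchange factor gene Vav1 fell by 0.44, 0.46 and 0.59. Zap70, the kinase that docks on phosphorylated CD3 chains, went the other way, from 9.11, 8.73, 9.26 and 8.91 to 10.29, 10.05, 10.54 and 10.10. That rise was 2.37-fold (adjusted p = 1.1e-06), its 2 other probes rose by 1.48 and 1.25, and no arrays overlapped.

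Genes that receptor signals switch on within an hour or so were split. Of 15 measured, 6 fell, 1 rose and 8 did not pass (46.7% called, against 55.9% of all genes), with a median of -0.27. Id3, an inhibitor of E proteins induced by the pre-TCR, rose by 0.58 (SE 0.11, adjusted p = 9e-04), from 8.37 to 8.90 in DN3a to 9.02 to 9.35 in DN3b cells. The factor genes Jun and Junb fell by 1.21 and 1.00, Cd69, an early activation marker, by 1.11, Ier3 by 1.02 and the phosphatase gene Dusp2 by 0.96. The fall of Ier3 lost its call without sorts 1 and 3. Egr1 had a change of -0.30 with overlapping arrays (adjusted p = 0.2), and Egr2, Egr3 and Fos did not pass either. Cd5, whose surface level follows receptor signal strength, was above background on 0 of 4 DN3a arrays and 1 of 4 DN3b arrays. Among E proteins and their inhibitors, Tcf12, which encodes HEB, rose by 0.34, a call lost without sorts 1 and 3 and without sorts 2 and 3, and Tcf4 fell by 0.62.

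The Notch pathway, whose receptors release an intracellular domain that activates target genes such as Hes1 and Ptcra, fell at the level of receptor, modifier and target. Of 9 measured members 7 fell, 1 rose and Nrarp did not pass, with a median of -1.12. Notch3 had signals of 10.92, 10.56, 11.21 and 10.84 in DN3a and of 7.60, 7.52, 7.50 and 7.77 in DN3b cells. The groups lay more than 2 units apart, and the fall was 9.74-fold (adjusted p = 3.1e-08). Notch1, the receptor that commits cells to the T lineage, fell less, from 10.66, 11.22, 10.88 and 10.67 to 9.73, 9.85, 9.38 and 9.62 (2.32-fold, SE 0.15 in log2, adjusted p = 5.3e-05). Mfng and Lfng, the Fringe enzymes that tune the response of Notch to its ligands, were both lower, Mfng by 1.12 and Lfng at least 1.28-fold, since no DN3b array showed Lfng above background (adjusted p = 0.012). Hes1, a repressor and direct Notch target, was nearly constant in DN3a cells, at 9.90, 9.90, 9.92 and 9.94, and stood at 6.55, 6.93, 6.35 and 6.94 in DN3b cells, 9.33-fold lower. Hes5 fell by 0.87 and Dtx1 by 1.17, with Dtx1 above background on 1 of 4 DN3b arrays. Sort 3 held the highest DN3a level of Dtx1, 7.37 against 5.80 to 6.13 in the other sorts. Hey1, a repressor of the same family as Hes1, rose instead by 1.33 (SE 0.23, adjusted p = 5.8e-04), from 5.96 to 6.59 in DN3a to 7.06 to 8.11 in DN3b cells.

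Of 9 measured members of V(D)J recombination and end joining 3 fell and 6 did not pass, with a median of -0.08. The share called was 33.3%, all of it falls, while of all genes 55.9% were called and 31% fell. Rag1, a subunit of the recombinase, fell by 0.74 (SE 0.11, 1.68-fold, adjusted p = 2.5e-04), from signals of 10.57 to 11.07 to signals of 9.83 to 10.11. Dntt, the polymerase that adds untemplated bases to junctions, fell by 0.70. Rag2, the partner of Rag1, was at 6.95, 6.53, 7.48 and 6.82 in DN3a and at 7.07, 6.74, 7.43 and 7.09 in DN3b cells, which overlap (change 0.14, adjusted p = 0.42). The third fall, Xrcc4 at -0.44, lost its call without sort 1 or without sort 3.

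Of 17 measured transcription factor genes of the T lineage 9 fell, 3 rose and 5 did not pass, with a median of -0.27, and without sorts 1 and 3, or 2 and 3, 5 falls and 1 rise were called. Gata3, a factor of T lineage commitment, had signals of 9.65, 9.80, 9.99 and 10.05 in DN3a and of 10.51, 10.61, 10.59 and 10.59 in DN3b cells, a rise of 0.70 (SE 0.10, adjusted p = 2.1e-04) with no overlap. Bcl11b, which fixes T lineage identity, was among the strongest signals in DN3a cells at 13.18 to 13.28 and fell 1.93-fold to 12.25 to 12.34. Runx1 fell by 1.04 and Ikzf2, which encodes Helios, by 0.94. Bcl6, a repressor known to act at this step, fell from 11.33, 11.08, 11.89 and 11.41 to 9.78, 9.87, 10.19 and 10.21, 2.67-fold with no overlap (adjusted p = 1.3e-06). Lef1 had a change of -0.05 with overlapping arrays and did not pass. The rise of Gfi1 (0.26) lost its call without sort 1, 2 or 4, and that of Cbfb (0.30) without sort 1.

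Genes of progenitors and of other lineages fell for the greater part. Of 6 measured members 4 fell and 1 rose, with a median of -0.99. Bcl11a, a factor of B cell and progenitor programmes, fell by 1.66, Irf8 by 1.22 and Hhex by 0.75. Cpa3, a carboxypeptidase of mast cells and early progenitors, fell by 1.75 with a wide spread, from 8.46, 8.52, 8.87 and 9.23 to 5.98, 7.20, 6.15 and 8.74, and the groups overlapped. Its 2 other probes gave -1.98 and -0.40. The call on its chosen probe was lost when sorts 1 and 3, or 2 and 3, were left out. Gfi1b, a repressor related to Gfi1, rose by 1.49 and was above background on 1 of 4 DN3a and 4 of 4 DN3b arrays. Genes shared with gamma-delta and cytotoxic cells fell in 4 of 8 cases (62.5% called, against 55.9% of all genes), with a median of -0.39. Nkg7, a protein of cytotoxic granules, fell 7.72-fold, from 10.84, 10.82, 10.95 and 11.12 to 7.58, 8.06, 7.75 and 8.55. Blk, a SRC family kinase of B and gamma-delta T cells, fell by 1.83, Sox13 by 0.96, a call lost without sorts 1 and 3, and perforin (Prf1) by 0.69. Sox13 was above background on 2 of 4 DN3b arrays. Etv5 was the member that rose, at least 1.49-fold, from 0 of 4 arrays above background to 4 of 4 (adjusted p = 1.1e-04).

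Surface genes that change on the way to the next stages moved in both directions. Of 15 measured members 6 rose, 3 fell and 6 did not pass (60% called, against 55.9% of all genes), with a median of 0.25. Cd8b1, the beta chain of the CD8 co-receptor, had signals of 9.75, 9.46, 9.05 and 9.13 in DN3a and of 11.99, 12.21, 12.11 and 11.93 in DN3b cells. It was 6.54-fold higher with no overlap (log2 change 2.71, SE 0.14, adjusted p = 1.9e-07), and its other probe gave 2.61. Cd4 and Cd8a were not measured. Ly9, a receptor of the SLAM family, rose by 1.76. Cd28, the co-stimulatory receptor, rose from 10.30, 10.10, 9.37 and 9.70 to 11.45, 11.45, 10.87 and 11.09, 2.55-fold with no overlap. Cd2 rose by at least 1.21-fold from signals not above background on any DN3a array (adjusted p = 0.0037). Slamf1 was also not above background in DN3a, and its call as higher was lost without sort 1 or 2. Cd27, a TNF receptor family member that marks cells past beta-selection as protein, fell at the transcript level from 13.67 to 14.05 to 13.11 to 13.34 (change -0.66, SE 0.08, adjusted p = 5.1e-05). Its 2 other probes gave -0.37 and -0.19. Ly6d fell by 1.45 and Cd53 by 0.63, while Cd24a, Cd44, Cd6 and Thy1 did not pass.

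Adhesion and migration receptors held some of the largest falls. Of 8 measured 4 fell and 1 rose (62.5% called, against 55.9% of all genes), with a median of -0.21. Besides Itgae, its partner chain Itgb7 fell 4.25-fold, from 8.10, 8.16, 7.98 and 8.50 to 5.82, 6.43, 5.31 and 6.83. Gpr183, a receptor for oxysterols that guides lymphocytes, fell 6.96-fold, from 7.60 to 8.21 in DN3a cells to 4.79 to 5.52 in DN3b cells, where 1 of 4 arrays was above background. Cxcr4, the receptor for CXCL12, was at 10.69, 10.51, 10.52 and 10.96 in DN3a and at 10.62, 10.49, 10.12 and 10.09 in DN3b cells. Its fall of 0.34 (adjusted p = 0.044) lost the call without sort 3 or 4, and the rise of Itgb1 (0.39) lost it without sort 1, 3 or 4.

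Il7r, the alpha chain of the IL7 receptor, rose. It had signals of 9.40, 9.22, 9.60 and 9.89 in DN3a and of 10.83, 10.70, 10.77 and 11.06 in DN3b cells. No arrays overlapped, the rise was 2.47-fold (log2 change 1.31, SE 0.10, adjusted p = 1.9e-06), and its other probe rose by 1.66. Of 11 measured members of the receptor, JAK and STAT list, 6 fell, Il7r alone rose and 4 did not pass, with a median of -0.32. Stat4 fell by 1.24, Tyk2 by 1.19, Jak1 by 1.05, Stat5a by 0.55, Jak3 by 0.53 and Stat3 by 0.32. Jak1 lay at 6.59, 6.28, 6.05 and 5.51 in DN3b cells, lowest in sort 4.

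Of 11 measured genes that IL7 and STAT5 are known to induce, 5 fell in the step without IL7 and 6 did not pass, with a median of -0.31. The share called was 45.5%, against 55.9% of all genes. Socs3, an inhibitor of cytokine receptors, had signals of 11.94, 12.12, 11.61 and 11.48 in DN3a and of 7.95, 7.97, 8.06 and 7.84 in DN3b cells. The groups lay more than 3 units apart, and the fall was 14.3-fold (SE 0.13 in log2, adjusted p = 3.1e-08). Cish, another inhibitor of the same family, fell 2.35-fold, Map3k8 2.38-fold and Pim1, a survival kinase, by 0.89, although another probe of Pim1 gave 0.07. Bhlhe40, a repressor, was not above background on any DN3b array and fell at least 2.79-fold (adjusted p = 4.2e-07). Socs1 and Osm did not pass.

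Of 10 measured genes of the BCL2 family 5 fell and 2 rose, with a median of -0.23. Bmf, a BH3-only protein that promotes cell death, fell 4.70-fold, from 9.84, 9.36, 9.39 and 9.12 to 7.23, 7.38, 6.72 and 7.44, with no overlap. The BH3-only genes Bbc3 and Bcl2l11, which encode PUMA and BIM, fell by 0.72 and 0.56, but other probes of these genes gave -0.07 and 0.17, and -0.22 and 0.46. Mcl1, which protects cells from death, fell 2.08-fold, from 11.21 to 11.81 to 10.16 to 10.78. Bcl2l1, which encodes the protective BCL-XL, rose by 0.51 (adjusted p = 0.0031), a call lost without sorts 2 and 3, and its 2 other probes rose by 0.48 and 0.61. Bcl2 had a change of -0.11 with overlapping arrays (adjusted p = 0.65), and its 5 other probes ran from -0.85 to 0.28. Genes for both protection and death were therefore among those that fell. Of 8 measured genes of caspases and the apoptosome 2 fell, 1 rose and 5 did not pass (37.5% called, against 55.9% of all genes). Casp1, the inflammasome caspase, fell 4.98-fold, from 10.85 to 10.96 to 8.27 to 8.96. The adaptor gene Fadd rose by 0.80.

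FOXO-linked and quiescence genes, which are high in resting lymphocytes, fell in 7 of 15 cases, rose in 2 and did not pass in 6, with a median of -0.19. Called were thus 60% of them, near the 55.9% of all genes. Pik3ip1, an inhibitor of PI3 kinase, had signals of 11.25, 11.50, 11.57 and 11.49 in DN3a and of 9.33, 9.49, 9.61 and 9.74 in DN3b cells, 3.75-fold lower with no overlap (adjusted p = 4.1e-07). Txnip, a brake on glucose uptake, fell 2.67-fold, Gadd45a 2.04-fold, and Btg1, an antiproliferative factor, by 0.89. Ccng2 rose by 0.59. The rise of Foxo1 itself, 0.27, lost its call without sort 1, 2 or 3. Klf2 and Cdkn1b did not pass.

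Genes of the passage from G1 into S phase mostly rose, inhibitors among them. Of 19 measured cyclins, kinases, E2F factors, pocket proteins and inhibitors 13 rose and 2 fell, with a median of 0.45. Cyclin E2 (Ccne2) rose 4.34-fold, from 5.89, 6.09, 5.46 and 5.76 to 7.73, 7.92, 8.26 and 7.75, and Ccne1, E2f2 and E2f1 rose by 1.34, 1.46 and 1.20. The D cyclins split. Ccnd3, which DN thymocytes need to expand, rose by 0.40 (SE 0.10, adjusted p = 0.0061), from 11.63 to 11.99 to 12.11 to 12.42, a call lost without sorts 2 and 3. Its 2 other probes gave 0.47 and -0.03. Ccnd2 fell from 9.56, 9.57, 9.90 and 10.02 to 8.38, 8.13, 8.22 and 8.12, 2.92-fold with no overlap (adjusted p = 9.4e-06), and Ccnd1 did not pass. The CDK inhibitors split as well. Cdkn1a, which encodes p21, fell 5.02-fold, from 10.67, 10.58, 11.12 and 10.28 to 8.27, 8.33, 8.56 and 8.18, and its 2 other probes fell by 2.30 and 1.99. Cdkn2c, which encodes p18, rose 5.16-fold, from 7.48 to 8.01 to 9.63 to 10.50, although its other probe gave -0.70. Cdkn1c (p57) rose by 1.60, and Cdkn1b (p27) had a change of 0.24 with overlapping arrays (adjusted p = 0.15).

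DNA replication genes rose almost without exception. Of 41 measured 38 rose, 30 of them at least 2-fold, with a median of 1.33, Orc4 did not pass, and Prim2 and Orc3 fell by 0.39 and 0.54, calls lost without sorts 1 and 3 and without sorts 2 and 3. Mcm10, a factor of origin firing, had signals of 8.63, 8.16, 7.46 and 8.50 in DN3a and of 11.45, 11.32, 11.35 and 11.39 in DN3b cells. The DN3b arrays were almost equal and lay above all DN3a arrays, a 9.13-fold rise (SE 0.17 in log2, adjusted p = 2.3e-07). Cdc45, a component of the replicative helicase, rose by 2.82, the loading factor Cdc6 by 2.37 and the checkpoint mediator Clspn by 2.33. The ligase Lig1 rose by 2.21, with 1 of 3 other Lig1 probes at 0.22. The other probe of Cdc6 gave 0.82, and those of Clspn gave 2.53, 2.29 and 0.88. The 6 subunits of the MCM2-7 helicase rose by 0.89 (Mcm4) to 1.99 (Mcm3). Enzymes of nucleotide synthesis rose in 16 of 22 cases and fell in 1, with a median of 1.28. Mthfd2, a mitochondrial folate enzyme, rose 8.75-fold, from 6.52, 6.36, 5.65 and 6.75 to 9.25, 9.87, 9.23 and 9.44. Ribonucleotide reductase (Rrm2), thymidine kinase (Tk1) and thymidylate synthase (Tyms) rose by 2.78, 2.73 and 2.49, and other probes of Tyms gave 2.36, 1.39 and 1.05. Impdh1 fell by 0.47, although its 2 other probes gave -0.10 and 0.03.

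Genes of homologous recombination and the Fanconi pathway, which repair broken or stalled forks, rose in 11 of 13 cases, with a median of 1.55. Fancd2 rose 8.38-fold, from 7.01, 6.01, 6.22 and 5.91 to 9.26, 9.27, 9.59 and 9.30. Rad51ap1 and Fanci rose by 2.74 and 2.44, Rad54l by 2.21, and Bard1 at least 2.90-fold from signals not above background in DN3a (adjusted p = 2.2e-07). Fanci was above background on 2 of 4 DN3a arrays. Of 55 measured histone genes 44 rose, 41 of them at least 2-fold, and 4 fell, with a median of 1.52. H2ac21 rose 10.5-fold and H3c6 9.25-fold. The largest falls were those of H2ac18 by 2.21 and H2aw by 1.05, calls kept under every alternative. Both genes were above background on 4 of 4 DN3a and 2 of 4 DN3b arrays. Histone genes of one class are near-identical copies whose probes can share transcripts, so single members are uncertain. H2bc18 is an example, since its chosen probe fell by 0.87 and its other probe rose by 1.23. H3f3b, which encodes a replacement histone made outside S phase, was lower by 0.24, a call lost without sort 1, 2 or 4.

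Genes of G2 and mitosis had the highest median of the lists. Of 36 measured 35 rose, 32 of them at least 2-fold, and the median was 2.95. All 35 had every DN3b array above every DN3a array. Plk1, the polo-like kinase of mitotic entry, had signals of 8.70, 8.18, 7.90 and 7.99 in DN3a and of 12.19, 12.17, 12.40 and 12.08 in DN3b cells, 16.1-fold higher (log2 change 4.01, SE 0.15, adjusted p = 3.5e-08). Cdk1, the kinase that drives mitosis, rose 14.5-fold, from 7.94, 7.50, 6.86 and 7.64 to 11.44, 11.34, 11.25 and 11.35. Cdc25c, the phosphatase that activates it, rose by 4.09 and was above background on 1 of 4 DN3a arrays. The spindle kinesin Kif11 rose by 3.77, Birc5, which encodes survivin, by 3.84, separase (Espl1) by 3.71, Cdca8 by 3.64 and the kinetochore gene Spc25 by 3.65. Ccna2, not above background in DN3a, rose at least 1.25-fold (adjusted p = 1.4e-04), and Pttg1, which encodes securin, did not pass (0.18). In these bulk samples a smaller number of dividing cells and less of these transcripts per cell cannot be told apart.

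The sorts differed in these genes on the DN3a side. The mean log2 level of the 36 members was 7.87, 7.53, 7.15 and 7.49 in DN3a cells of sorts 1 to 4, against 10.36, 10.35, 10.26 and 10.28 in DN3b cells. Sort 1 was the highest DN3a array for 29 of 36 members and sort 3 the lowest for 29 of 36, against 2384 (27%) and 2348 (26.6%) of all 8820 genes. The rise was least in sort 1 and greatest in sort 3. Replication genes had the same order, with sort 1 the highest for 24 and sort 3 the lowest for 23 of 41. Whether dividing cells were present among the DN3a cells of sort 1 was not tested.

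Promoter letters were read for these genes because E2F factors are known to act on S phase promoters. The DREAM and MuvB complexes are known to act on G2/M promoters through a cell cycle homology region (CHR). CCAAT boxes were read beside the CHR and are not ascribed to these complexes. Windows of 300 bases (250 before to 50 after the RefSeq start, GRCm38.p6) were at hand, 1 each, for 5719 of the tested genes. Both strands were searched for an E2F motif, written as TTGGCGC or in its common forms TTCCCGC and also TTGCCGC and lastly TTCGCGC, for the CHR motif TTTGAA, for the CCAAT box and for the E-box CACGTG. E2F letters stood in 17.3% of all windows, in 17 of 28 replication genes (60.7%) and in 20.7% of 29 G2/M genes. CHR letters stood in 12.2% of all windows and in 21 of 29 G2/M genes (72.4%), and CHR with CCAAT in 5.32% of all and in 18 of those 29 (62.1%). Of genes that rose at least 2-fold 34.4% held E2F letters and 19.5% CHR with CCAAT, against 9.87% and 2.55% of those that fell at least 2-fold. E-box letters, which MYC with MAX can bind, stood in 8.48% of the former, 7.64% of the latter and 10.2% of all. These are matches of letters, not measured binding. The promoters printed below are examples that hold the marked letters, not a representative sample of their lists. How common the letters are in each list is given only by the shares above. The 250 bases before the start of 2 genes of each list follow in the direction of transcription, with CHR and CCAAT letters in capitals in Cdk1 (chr10:69352913-69353162, minus strand) and Kif11 (chr19:37376132-37376381, plus strand) and E2F letters in capitals in Cdc6 (chr11:98907901-98908150, plus strand) and Mcm5 (chr8:75109259-75109508, plus strand). Letters of other motifs are not marked.
Cdk1: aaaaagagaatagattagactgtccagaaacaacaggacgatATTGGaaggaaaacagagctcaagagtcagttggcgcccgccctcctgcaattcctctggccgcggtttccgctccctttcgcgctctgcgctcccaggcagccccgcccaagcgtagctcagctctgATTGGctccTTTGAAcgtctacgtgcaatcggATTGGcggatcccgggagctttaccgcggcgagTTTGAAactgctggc
Kif11: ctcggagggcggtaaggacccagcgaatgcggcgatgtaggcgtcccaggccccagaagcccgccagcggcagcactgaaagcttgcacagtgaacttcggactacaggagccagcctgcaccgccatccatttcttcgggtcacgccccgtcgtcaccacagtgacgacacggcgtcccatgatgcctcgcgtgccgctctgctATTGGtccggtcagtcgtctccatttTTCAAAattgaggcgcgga
Cdc6: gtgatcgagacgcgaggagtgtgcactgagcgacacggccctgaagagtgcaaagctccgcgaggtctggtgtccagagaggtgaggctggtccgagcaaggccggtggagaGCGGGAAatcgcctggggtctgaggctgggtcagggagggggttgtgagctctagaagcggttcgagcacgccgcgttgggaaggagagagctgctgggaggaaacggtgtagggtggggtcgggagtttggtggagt
Mcm5: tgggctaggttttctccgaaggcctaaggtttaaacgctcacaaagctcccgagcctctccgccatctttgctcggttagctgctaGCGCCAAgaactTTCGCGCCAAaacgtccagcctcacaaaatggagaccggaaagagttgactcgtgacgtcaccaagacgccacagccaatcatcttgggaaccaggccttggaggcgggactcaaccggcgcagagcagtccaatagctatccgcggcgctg
In Cdk1 the CHR letters lie at -71 to -66 and -15 to -10, each shortly downstream of CCAAT letters read on the other strand (-80 to -76 and -48 to -44), and another CCAAT lies at -208 to -204. Kif11 has the pair once, at -45 to -41 and -19 to -14. Cdc6 holds E2F letters at -138 to -132, and Mcm5 at -164 to -158 and, overlapping, at -152 to -146 and -149 to -143. Mcm5 itself rose by 1.84.

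**Figure D3:**
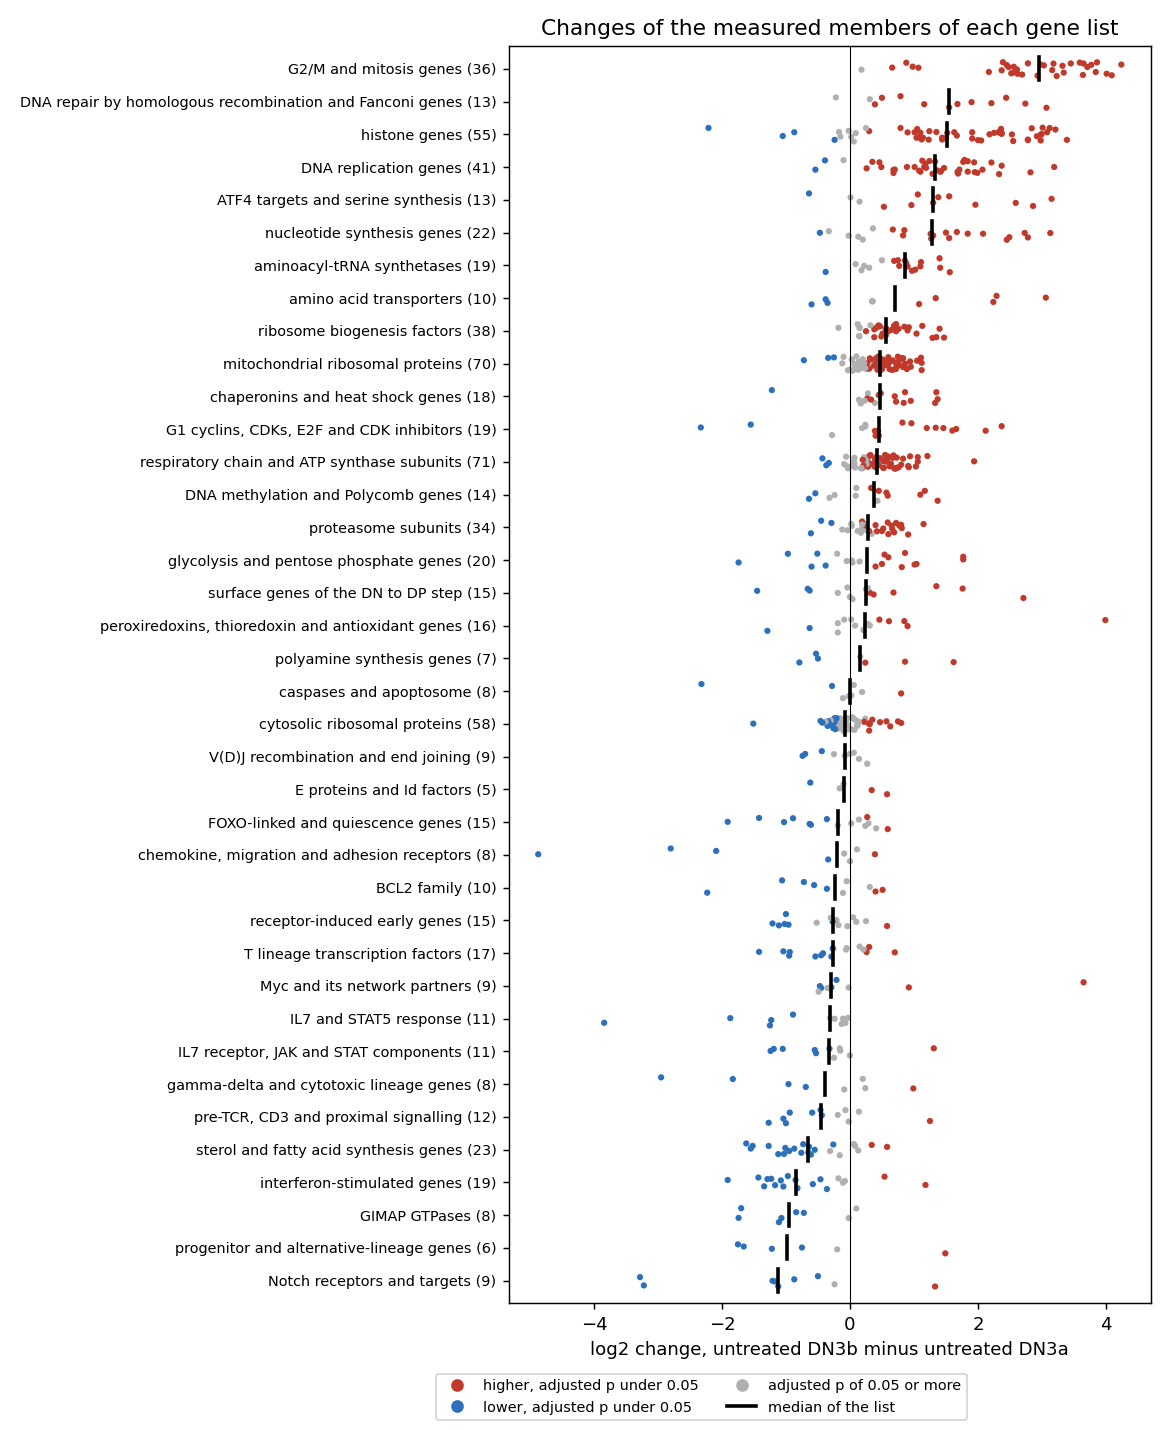
Log2 change of every measured member of each gene list, 1 point per gene, coloured by the limma call, with a bar at the list median and the number measured in brackets. The lists run from G2/M and mitosis genes, with a median of 2.95, down to Notch receptors and targets, with a median of -1.12.

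The machinery of cell growth rose by smaller amounts. Of 38 ribosome biogenesis factors 31 rose and 7 did not pass, with a median of 0.56. Fbl, the methylase fibrillarin of the nucleolus, had signals of 11.81, 11.61, 11.74 and 11.86 in DN3a and of 13.20, 13.18, 13.43 and 13.09 in DN3b cells, a 2.76-fold rise (SE 0.09 in log2, adjusted p = 5.3e-07). Rrp12 and Mrto4 rose by 1.40 and 1.35, and Polr1c, a subunit of RNA polymerases I and III, by 1.29. Cytosolic ribosomal proteins were split: of 58 measured 10 rose, 14 fell and 34 did not pass (41.4% called, against 55.9% of all genes), with a median of -0.08. Their counts were fragile, at 4 rises and 7 falls without sort 4, 5 and 8 without sort 2, and 6 and 8 without the sort block. Rpl4 rose by 0.80 and Rplp0 by 0.75. Rpl3l fell 2.86-fold (adjusted p = 2.7e-06), the only member changed at least 2-fold, and kept its call under every alternative. Rps24 was lower by 0.46 with its chosen probe and higher by 0.88 with another. Mitochondrial ribosomal proteins rose in 48 of 70 cases and fell in 3, with a median of 0.47, and Mrpl18 and Mrps10 rose by 1.12, although another probe of Mrpl18 gave -0.06.

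Genes that supply amino acids rose more. Aminoacyl-tRNA synthetases, which load tRNAs, rose in 13 of 19 cases, with a median of 0.86, led by Aars (1.56), Gars (1.41) and Nars (1.40), while Farsa was lower by 0.38, a call lost without sort 2. Of 10 amino acid transporters 6 rose and 3 fell, with a median of 0.71. Slc7a5, the large neutral amino acid transporter, had signals of 10.12, 10.00, 9.36 and 10.18 in DN3a and of 13.15, 12.91, 13.02 and 12.82 in DN3b cells. It was 8.36-fold higher with no overlap (log2 change 3.06, SE 0.16, adjusted p = 1.6e-07). Its partner Slc3a2 rose at least 1.5-fold (adjusted p = 1.2e-04) and Slc1a4 at least 3.28-fold (adjusted p = 4.6e-07), both from signals not above background on any DN3a array. Slc6a9, a glycine transporter, rose by 2.29, and Slc38a2 fell by 0.60, although its 2 other probes gave 0.17 and 0.01.

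Targets of ATF4, the factor of the amino acid response, and enzymes of serine synthesis rose in 10 of 13 cases and fell in 1, with a median of 1.30. Asns, asparagine synthetase, had signals of 8.52, 8.70, 7.57 and 7.93 in DN3a and of 11.61, 11.43, 11.12 and 11.17 in DN3b cells, an 8.87-fold rise with no overlap (adjusted p = 3.1e-08). Its other probes gave changes of 3.10 and 1.25. Psat1 and Phgdh of serine synthesis rose by 2.59 and 1.06, the glutathione-cleaving enzyme gene Chac1 by 2.86, Cebpb by 1.96, Atf5 by 1.55 and Atf4 itself by 0.96. Ddit3, which encodes the stress factor CHOP and is also an ATF4 target, fell by 0.64 (SE 0.07, adjusted p = 3.5e-05), from 9.41 to 9.85 to 8.74 to 9.30, and its other probe fell by 0.43.

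Myc, a driver of growth, rose by 0.92 (SE 0.15, 1.90-fold, adjusted p = 3.5e-04), from 5.92, 5.73, 6.06 and 5.74 to 6.30, 6.42, 7.31 and 7.13. The groups did not overlap, and the rise was larger in sorts 3 and 4. Of 9 measured members of its network 4 fell and 2 rose, with a median of -0.29, Mxd3 rising and Mxd4 falling by 0.47. The falls of Max (0.29), Mxi1 (0.45) and Zbtb17 (0.21) each lost their calls without some of the single sorts, and another probe of Max gave 0.35. Chaperonins and heat shock genes rose in 12 of 18 cases, with a median of 0.47, led by the mitochondrial chaperonin gene Hspd1 (1.37), Hsph1 (1.35) and Hspa9 (1.33). Hspa1a, which encodes inducible HSP70, was above background on 3 of 4 DN3a and 0 of 4 DN3b arrays and fell at least 1.39-fold (adjusted p = 9.2e-04). Proteasome subunits rose in 19 of 34 cases, with a median of 0.28. The 3 that fell, Psmb10 (0.61), Psmb8 (0.45) and Psmb9 (0.29), are the catalytic subunits of the immunoproteasome, and the calls were lost for Psmb9 without sort 3 or 4 and for Psmb8 without sorts 1 and 3.

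Energy metabolism changed unevenly. Respiratory chain and ATP synthase subunits rose in 51 of 71 cases and fell in 3, with a median of 0.43 and 5 members at least 2-fold higher. Cox6a2, a cytochrome oxidase subunit best known from heart and muscle, rose most, 3.84-fold, from 7.09 to 7.28 to 8.98 to 9.21. Of 20 genes of glycolysis and the pentose phosphate path 10 rose, 5 fell and 5 did not pass, with a median of 0.27. The isozymes of single steps moved apart. Hexokinase 2 (Hk2) rose by 1.04 while Hk1 fell by 0.97, and the platelet type phosphofructokinase Pfkp rose 3.41-fold while Pfkm and Pfkl fell by 0.51 and 0.38. Other probes of Pfkm and Pfkl gave 0.25 and 0.29. Tpi1 had signals of 10.62, 10.41, 10.55 and 10.44 in DN3a and of 12.34, 12.24, 12.39 and 12.15 in DN3b cells, 3.42-fold higher (adjusted p = 4.4e-08). Lactate dehydrogenase A (Ldha) rose 2.02-fold. Aldoc fell 3.34-fold, a size limited by background, since 2 of 4 DN3b arrays showed it above background. The glucose transporter genes Slc2a1 and Slc2a3 did not pass.

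Sterol and fatty acid synthesis fell. Of 23 measured enzymes and regulators 16 fell, 7 of them at least 2-fold, 2 rose and 5 did not pass, with a median of -0.65. Elovl6, which lengthens fatty acids, had signals of 10.10, 10.16, 10.04 and 10.19 in DN3a and of 8.39, 8.56, 8.34 and 8.71 in DN3b cells, 3.07-fold lower with no overlap (SE 0.10 in log2, adjusted p = 6.5e-07). The cholesterol enzyme genes Hsd17b7, Dhcr7, Msmo1 and Hmgcs1 fell by 1.55, 1.52, 1.27 and 1.12. Srebf2, the factor that switches on the cholesterol path, fell by 0.76, and Srebf1 did not pass. Pmvk rose by 0.58, and the rise of Ebp (0.34) lost its call without sort 2, 3 or 4.

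Interferon-stimulated genes fell in 14 of 19 cases, 8 of them at least 2-fold, and rose in 2, with a median of -0.85. Trim30a fell 3.76-fold, from 8.83, 8.80, 8.68 and 8.65 to 6.84, 6.99, 6.71 and 6.78 (adjusted p = 4.6e-07). The factor genes Irf9, Irf1 and Stat2 fell by 1.43, 1.17 and 1.04, the GTPase gene Gbp2 by 1.34 and Rsad2, which encodes viperin, by 1.29. Ifit2 rose against them, from 7.33, 7.06, 7.08 and 7.32 to 8.55, 8.19, 8.51 and 8.27, 2.27-fold with no overlap, and its other probe rose by 1.22. The rise of Ifit3 (0.54) lost its call without sort 4. GIMAP genes, which encode GTPases linked to lymphocyte survival, fell in 6 of 8 cases, with a median of -0.96. Gimap5 fell 3.33-fold and Gimap8 3.25-fold, Gimap1, among the strong signals at 12.29 to 12.60 in DN3a cells, 2.16-fold, and Gimap3 and Gimap4 did not pass.

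The same step was measured on other arrays, those of the sister cultures that had received IL7 for 3 h. They come from the same 4 sorts, so they are not independent animals. With IL7 4471 genes (50.7%) passed the threshold, 2027 (23%) higher and 2444 (27.7%) lower in DN3b cells. Of the 4933 genes called without IL7, 4798 had the same sign with it and 3828 were called the same way, which is 77.6% of the untreated calls and 85.6% of the calls with IL7, and 9 were called the opposite way. All 1138 genes that changed at least 2-fold without IL7 had the same sign with it, and 1121 (98.5%) were called. The difference between the steps was itself past the threshold for 150 of 8820 genes (1.7%), 65 with a larger and 85 with a smaller value with IL7, and for 86 of the 1138.

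**Figure D4:**
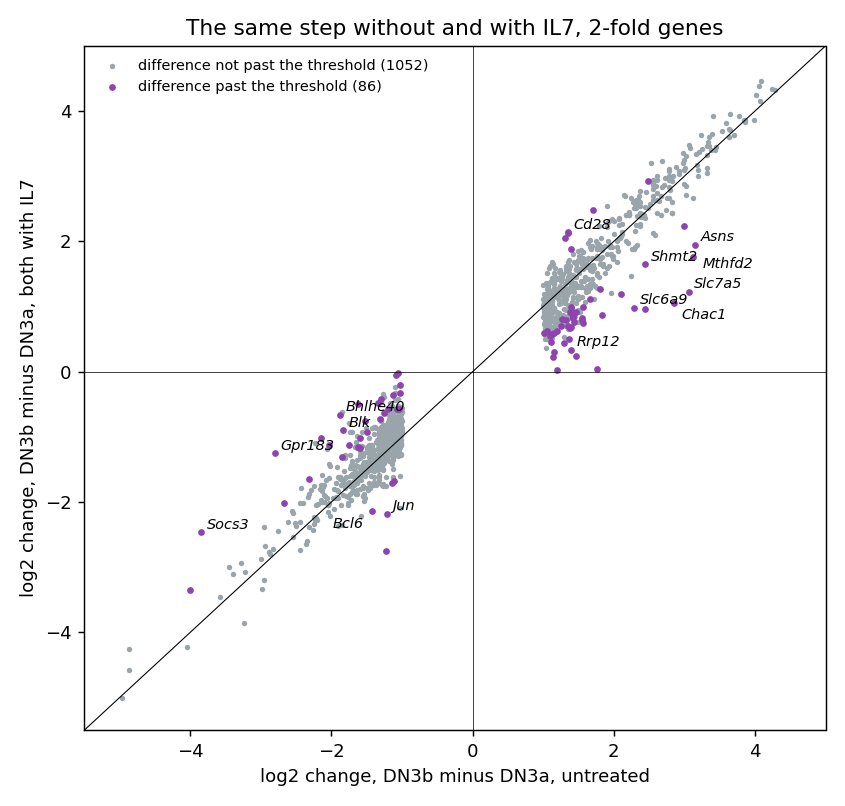
Log2 change of DN3b minus DN3a with IL7 against that without IL7, for the 1138 genes that changed at least 2-fold without it, with the line of equality. Purple marks the 86 genes whose change differed past the threshold, with Slc7a5, Chac1, Mthfd2 and Asns below the line on the right and Socs3 and Gpr183 above it on the left.

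The cell cycle lists had similar medians with IL7. The median change of the G2/M genes was 3.13 with and 2.95 without, and that of the replication genes 1.23 and 1.33, with a difference called for 1 of the 36 G2/M genes. The growth lists had smaller ones. The ATF4 and serine list had a median of 0.67 with IL7 and 1.30 without, with a smaller change called for 5 of 13, and ribosome biogenesis factors had 0.29 and 0.56, with 8 of 38. Slc7a5 rose by 1.23 with IL7 against 3.06 without, a difference of -1.83. Chac1 rose by 1.06 against 2.86, Mthfd2 by 1.76 against 3.13 and Asns by 1.95 against 3.15. Aminoacyl-tRNA synthetases had medians of 0.46 and 0.86, with 4 of 19 called, and nucleotide synthesis genes 0.91 and 1.28, with 5 of 22. Some surface genes went the other way: of 15, 4 had a larger value with IL7 past the threshold. Cd28 rose by 2.13 with IL7 against 1.35 without, and Ctla4 by 1.17 against -0.00, which did not pass. The other 2, Cd2 and Slamf1, were not above background in untreated DN3a cells, so the size of their difference is not known. Socs3 fell by 2.46 against 3.84 and Gpr183 by 1.25 against 2.80, while Bcl6 fell by 2.14 against 1.42. Among sterol and fatty acid genes 4 differences were below 0 and 1, Elovl6, above 0. The count of 150 depends on the processing, with 361 on the authors' processed values and 46 to 60 with 1 sort left out.

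Some transcripts of other blood cells were present and differed between groups and sorts. The summed signal of 8 myeloid and granulocyte markers was 360.5, 662.6, 1272.2 and 421.8 in DN3a and 221.3, 262.0, 488.3 and 217.2 in DN3b cells of sorts 1 to 4, and 2 of the 8 fell. Camp was not above background on any DN3a array, and S100a9, Lyz2, Ngp and Ltf on none of DN3b. Lyz2, which encodes lysozyme, fell at least 3.09-fold (adjusted p = 0.015), a call lost without sorts 1 and 3. Lyz2 fell in all 4 sorts, and its SE of 0.61 draws also on the spread of the DN4 arrays. Fcer1g fell by 1.12. The 2 erythroid markers summed to 1432.8, 57.5, 1416.7 and 56.7 in DN3a and 836.4, 68.4, 580.9 and 64.9 in DN3b cells, high in sorts 1 and 3 through Hba-a1, and neither passed. Klf1 was not above background on any DN3a array. The 3 B cell markers summed to 1241.7 to 1704.4 in DN3a and 510.8 to 659.0 in DN3b cells, a difference that rests mostly on Cd79b. Cd79b fell by 1.52 and Vpreb1 by 0.79, the latter lost without sorts 1 and 3, Ms4a1 did not pass, and Cd79a and Pax5 were not measured.

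Of 4 mature T cell markers Itgae fell, and Foxp3, Icos and Ctla4 did not pass. Their sum was 3324.7 to 5706.6 in DN3a and 1187.2 to 1589.3 in DN3b cells, a difference that rests mostly on Itgae. The 3 dendritic cell markers summed to 192.1 to 299.1 and 276.3 to 332.4, with a rise of 0.67 for H2-Ab1, and the 3 stroma markers to 151.6 to 184.5 and 153.9 to 186.8, with a fall of 0.40 for Pdgfrb that was lost without sort 1 or 4. The part of such cells in the falls of genes that myeloid or B cells also express, such as Irf8, Bcl11a, Blk, Pld4 and Cpa3, was not tested. Without sorts 1 and 3, which held the globin signal, 3788 genes were called, 3603 of them with the call and sign of the full set. Without sorts 2 and 3 the figures were 3491 and 3370.

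**Figure D5:**
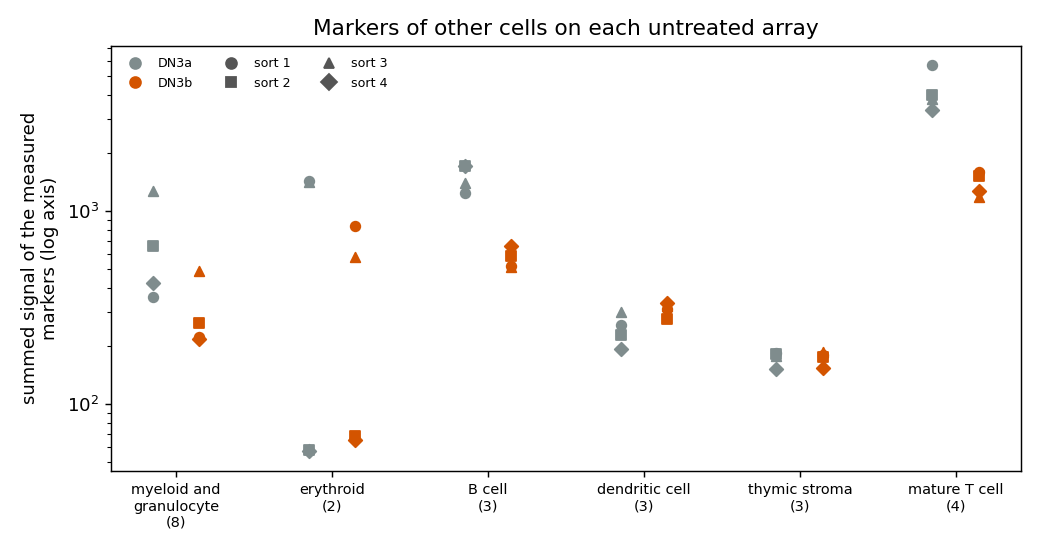
Summed linear signal of the measured markers of 6 other cell types on each untreated array, on a log axis, with the number of markers in brackets, DN3a in grey, DN3b in orange and a symbol per sort. Myeloid sums are highest in sort 3, erythroid sums are high in sorts 1 and 3 only, and B cell and mature T cell sums are higher in every DN3a than in any DN3b sample.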

How the data were processed

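RNA from 24 cultures was hybridised to 1-colour beadchips. The authors deposited raw probe intensities with detection p-values, and a table of processed log2 values, which per the labels' design text came from background subtraction, quantile normalization and log2 transformation. GenomeStudio 2011.1 and R Bioconductor 2.13.0 are named by the submitters' processing notes and design text. Deposited intensities were background-corrected with their detection p-values and quantile-normalized here (neqc of limma 3.58.1 in R 4.3.3, offset 16). Probes with a detection p-value under 0.05 on at least 4 of 24 arrays were kept (12939 of 25697), and the probe with the highest mean stood for a gene. Platform annotation gave 1 symbol for 23978 probes and none for 1719.

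Values were fitted with limma over the 12 untreated arrays with sort as a block (6 residual degrees of freedom), adjusted by Benjamini-Hochberg over 8820 genes. The same model was fitted to the IL7 arrays, and all 24 arrays gave the difference between the steps. Sort numbers come from the titles, and deviations of same-numbered arrays from their group means correlated at 0.17 to 0.44, against a median of -0.10 for other numbers. Because deviations cancel within a group, the value for other numbers follows from that for same numbers and is no separate evidence. No arrays held identical values. Where no probe of a gene was above background in a group, the change is a bound (at least N-fold), taken on each array against the weakest detected probe or, if brighter, that gene's signal.

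Named were the 15 rising and 15 falling genes with the largest change, up to 5 rising and 4 falling members of each list, genes chosen whatever their values, and all measured markers of other cells. Members and lists were chosen with earlier results of these data known. List members named outside this rule were chosen after their values were seen. The fit was tested on simulated data of 8820 genes, where 60.6% of 66 genes changed by 0.5, 88.1% of 67 changed by 1 and 100% of 67 changed by 2 on the log2 scale were recovered, and 4.6% of calls were false. Far fewer genes were changed there than the 55.9% called in the real data, so these rates need not hold for this comparison. Alternatives covered background correction, the authors' values, filters, probe choice, the block, the arrays in the fit and left-out sorts. Promoter windows are RefSeq's (GRCm38.p6), matched by symbol. DN4 arrays served in the normalization, the detection filter, the choice of probes and the fits, and no comparison with DN4 cells is given.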

Additional observations from a re-analysis of the deposited data

Results flagged for a closer look

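In 15 of the 279 named genes 1 sort lay apart from the other 3 in its change, by a gap rule that chance meets in about 1 of 20 groups. Sort 3 stood apart for 8 of them. Its change was 1.42 for Cd2 (0.33 to 0.51 in the others), a gene not above background in DN3a so that these sizes are no measured folds, 0.19 for Bid (0.45 to 0.50), -0.70 for Gadd45a (-1.17 to -1.11), 2.80 for Ccne2 (1.83 to 1.99) and 3.59 for the histone gene H3c1 (2.85 to 2.97). It was 0.48 for Rpl4 (0.87 to 0.94), -0.76 for Ring1 (-0.48 to -0.45) and -0.37 for Fcer1g, a receptor chain of myeloid cells (-1.46 to -1.31). Sort 4 stood apart for Pld4 at -2.60 (-3.19 to -3.09), Jak1 at -1.58 (-0.92 to -0.79), Fadd at 1.03 (0.71 to 0.73) and Rpl22 at -0.27 (-0.51 to -0.47). Sort 1 stood apart for the replication checkpoint gene Clspn at 2.04 (2.40 to 2.47) and for Fancd2 at 2.25 (3.26 to 3.39), and sort 2 for Rpl13a at 0.41 (0.62 to 0.64). In each of these genes all 4 sorts changed the same way.

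For 34 named genes the change between the stages differed between cultures with and without IL7, by the interaction term of the limma fit, and the values are the change with IL7 minus that without. Genes of amino acid supply and the ATF4 response had smaller rises with IL7: Slc7a5 at -1.83, Chac1 at -1.80, Slc6a9 at -1.30, Asns at -1.20 and Atf5 at -0.75. The synthetase genes Aars, Nars, Iars and Gars were at -0.80, -0.70, -0.67 and -0.53, and the one-carbon genes Mthfd2 and Shmt2 at -1.36 and -0.80. Growth genes followed, with Rrp12 at -1.06, Mrto4 at -0.64, Fbl and Gar1 both at -0.55, Srm at -0.83, Cct6a at -0.58, Hspa9 at -0.54, Atp5g1 at -0.45 and Rbbp7 at -0.86. Jun (-0.96) and Bcl6 (-0.73) fell further with IL7. Of 15 surface genes 4 had larger values with IL7: Ctla4 at 1.17, Cd28 at 0.78, and Cd2 at 1.70 and Slamf1 at 1.09, both of which rest on untreated DN3a signals not above background. Genes whose fall was smaller with IL7 were Gpr183 (1.54), Socs3 (1.38), Bhlhe40 (1.21, not above background in untreated DN3b), the histone gene H2aw (1.02), Blk (0.92), Runx1 (0.47), Elovl6 (0.47) and Pfkm (0.38).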

How the results depend on the processing

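Between 3491 and 5202 genes were called over all 16 alternatives, against 4933, and 4295 to 4634 with 1 sort left out. Without the replicate block 4238 were called, of which 4229 shared call and sign with the blocked fit. Left-out sorts leave fewer samples. The count of genes at least 2-fold changed, 1138, was 651 on uncorrected quantile-normalized intensities, 722 with normexp at an offset of 50 and 637 on the authors' processed values, and 1086 to 1205 with 1 sort left out. Over all alternatives the 564 higher among them ran from 348 to 602 and the 574 lower from 289 to 623, and with 1 sort left out from 537 to 582 and from 549 to 623. The count of genes whose change differed with IL7, 150, was 348, 276 and 361 on those 3 kinds of values, 37 without the replicate block and 46 to 60 with 1 sort left out, and the cause was not tested. Of 257 named genes called, 214 kept the call under every alternative. With the probe of the highest F statistic the signs of H2bc18 and Rps24 reversed, to 1.23 and 0.88. Among values of named genes 4263 stayed on their side of the threshold with their direction, 150 lost the call and 13 gained it. Of the counts over gene lists 90 moved by over 1.5 times, against 1382 that did not. The share of higher calls ran from 43.3% to 45.7%. Signals near background limit what can be said of genes not detected in a group.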

Other observations

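Genes of DNA methylation and Polycomb complexes, which copy or write repressive marks on chromatin, rose in 7 of 14 measured cases and fell in 2, with a median of 0.38. Dnmt1, which copies methylation after replication, stood at 9.95, 9.80, 9.56 and 9.69 in DN3a and at 10.98, 11.12, 10.72 and 10.89 in DN3b cells (log2 change 1.17, SE 0.10, adjusted p = 5.1e-06). Ezh2, the methylase of Polycomb repressive complex PRC2, rose by 1.10 and Rbbp7 by 1.37. The PRC1 genes split, with Bmi1 and Cbx2 up by 0.59 and 0.57, Cbx8 at -0.64 and Ring1 at -0.54, the last a call lost without sorts 2 and 3. Of 16 antioxidant genes 5 rose and 2 fell (43.8% called, against 55.9% of all genes), with a median of 0.23. Besides Prdx4, Txn1 rose by 0.90 and Gclm, a subunit of the enzyme that starts glutathione synthesis, by 0.85, while Gpx1 fell by 0.63 and the mitochondrial thioredoxin reductase gene Txnrd2 by 1.29.

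Of 7 measured polyamine genes 3 rose and 3 fell, with a median of 0.16. Odc1, the enzyme that starts polyamine synthesis, rose 3.08-fold, from 9.94, 9.65, 10.16 and 9.80 to 11.80, 11.49, 11.53 and 11.22 (adjusted p = 4.1e-06), and spermidine synthase (Srm) by 0.86. The oxidase gene Smox fell by 0.79 and Azin1, above background on 1 of 4 DN3b arrays, by 0.53. Oaz2, whose product targets ODC1 for degradation, fell by 0.50, a call lost without sorts 1 and 3 and without sorts 2 and 3. The rise of Sat1 (0.24) lost its call without any of the 4 single sorts. Of 3 measured Schlafen genes Slfn2, linked to T cell quiescence, fell by 0.54, a call lost without the replicate block, and Slfn1 rose at least 1.10-fold from signals not above background in DN3a (adjusted p = 0.0011).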
